A study of Mus musculus with 69 samples.

Results

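Importins and exportins are the receptors that carry proteins and RNA through the nuclear pore, and the 10 genes described here were taken by name from the 24309 genes in the count tables: Ipo4, Ipo5, Ipo7, Ipo9, Kpnb1, Kpna2, Tnpo1, Xpo1, Xpo5 and Cse1l. Counts of all 10 passed the filter on low values in every comparison. The genes were chosen with earlier results of these data known, so shares over all genes given beside them serve as description only. Poly(A)+ RNA was sequenced from T cells sorted from pooled lymph nodes and spleens of adult mice with different numbers of Stat5 alleles, and the question put to these genes was how their mRNA levels follow the loss of STAT5A or STAT5B in each cell state and with each cytokine. WT mice carried both alleles of Stat5a and of Stat5b, AAB mice lacked Stat5a and kept 1 Stat5b allele (Stat5a-/- Stat5b+/-), and BBA mice lacked Stat5b and kept 1 Stat5a allele (Stat5a+/- Stat5b-/-). Neither single loss leaves the other gene intact, so an AAB or BBA value belongs to the whole allele combination.

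The 48 CD8+ libraries came from naive cells (Tnv, CD44 low CD62L high), central memory cells (Tcm, CD44 high CD62L high) and effector memory cells (Tem, CD44 high CD62L low), with 2 libraries for each genotype. Tnv and Tcm cells each had an NC (no cytokine), an IL-7 and an IL-15 condition. Tem cells had NC and IL-15 only. The labels give 12 to 16 h of culture, whereas the study's methods have the NC cells processed straight after sorting, so that an effect of cytokine and an effect of culture cannot be told apart in comparisons with NC. The 15 CD4+ libraries came from Tnv cells of the same 3 genotypes, without cytokine or with IL-7, with 2 or 3 libraries in each group. The last 4 libraries, 2 in each group, are labelled as in vitro activated AAB CD8+ T cells transduced with a retrovirus that carried constitutively active STAT5A (S5a) or with the empty vector (Ctl).

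Importins bind cargo in the cytoplasm and release it in the nucleus when the GTPase Ran, loaded with GTP, binds to them. Exportins work the other way and need Ran-GTP to hold their cargo. Growing cells make ribosomes in the nucleolus, and for this they import newly made ribosomal proteins and histones and export the assembled subunits, so that transport receptors belong to the machinery that lymphocytes enlarge when they are activated.

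Levels are CPM, the counts of a gene relative to the scaled library total, with TMM factors over all libraries of a table. A difference is given as a log2 fold change with its standard error (SE) from edgeR's quasi-likelihood test, and a gene was called changed at an adjusted p under 0.05 and a fold over 1.5. The study states that the mice of a group were assayed as biological replicates in repeated trials, but the labels do not tie a library to a mouse or a trial, so the spread behind a p-value can hold both. Total counts on genes ran from 5926139 to 25612758 in the CD8+ libraries, from 6705004 to 34118295 in the CD4+ libraries (those without a group included) and from 11020965 to 16516525 in the retrovirus libraries. In bulk RNA, fewer cells that express a gene and less of its RNA per cell cannot be told apart. Each member had at least 167 counts in every library, the lowest being Ipo4. Counting error was not compared with the spread of single members, and an SD over 2 libraries can fall below it.

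The targeted genes were checked first. Stat5a was at 32.7 to 107 CPM in the WT CD8+ libraries, 35.2 to 49.5 CPM in BBA and 0.97 to 4.91 CPM in AAB. Stat5b was at 165 to 353 CPM in WT, 78.8 to 141 CPM in AAB and 49.1 to 94.1 CPM in BBA, so that reads on Stat5b were reduced but present in the mice without it. Markers matched the labels in the CD8+ and CD4+ libraries, where Cd8a reached at least 697 CPM and Cd4 at least 608 CPM respectively. They did not in the retrovirus libraries. There Cd8a was at most 3.18 CPM, Cd8b1 at most 1.57 CPM and Cd3e at most 14.9 CPM, while the NK cell receptor gene Ncr1 stood between 1129 and 1460 CPM, so these are written below as the libraries labelled S5a or Ctl. Replicate 2 of WT Tnv with IL-15 also stood apart, with Cd4 at 237 CPM and Cd8a at 697 CPM against 6.52 and 1160 CPM in replicate 1, and calls that rest on it are given without it. The Y-linked genes marked all Tnv IL-7 libraries as male, all 15 CD4+ libraries as male, both WT libraries and 1 library each of AAB and BBA in Tcm with IL-7 as male, and the other CD8+ libraries as female. In the retrovirus libraries they marked 1 of 2 as male in each group.

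Promoter windows are shown first for the 3 members with the largest log2 fold change WT over BBA in Tcm with IL-15, where Ipo7 (0.91) came just before Kpna2 (0.89). In Tnv cells with either cytokine Kpna2 had the larger value of the pair, and its window holds no CACGTG. The RefSeq tables of build GRCm38.p6 held a window of 300 bases (250 before to 50 after the start site) for 9 of the 10 members, all but Cse1l. Capitals mark CACGTG, the E-box letters that MYC and its relatives are known to bind. Ipo4 (chr14:55635635-55635934, minus strand), Ipo7 (chr7:110018065-110018364, plus strand) and Ipo5 (chr14:120910944-120911243, plus strand) read as follows, 5′ to 3′ on the strand of the gene.
Ipo4: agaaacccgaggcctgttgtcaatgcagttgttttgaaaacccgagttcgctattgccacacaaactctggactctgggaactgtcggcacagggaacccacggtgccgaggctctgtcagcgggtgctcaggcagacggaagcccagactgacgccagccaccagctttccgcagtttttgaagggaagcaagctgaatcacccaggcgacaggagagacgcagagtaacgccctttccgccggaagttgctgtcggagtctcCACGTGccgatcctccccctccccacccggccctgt
Ipo7: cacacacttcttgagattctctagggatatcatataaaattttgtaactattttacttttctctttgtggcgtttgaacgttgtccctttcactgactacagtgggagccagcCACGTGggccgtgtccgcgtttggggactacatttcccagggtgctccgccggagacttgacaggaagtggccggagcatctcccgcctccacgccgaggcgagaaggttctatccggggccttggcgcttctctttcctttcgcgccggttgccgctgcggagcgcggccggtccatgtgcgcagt
Ipo5: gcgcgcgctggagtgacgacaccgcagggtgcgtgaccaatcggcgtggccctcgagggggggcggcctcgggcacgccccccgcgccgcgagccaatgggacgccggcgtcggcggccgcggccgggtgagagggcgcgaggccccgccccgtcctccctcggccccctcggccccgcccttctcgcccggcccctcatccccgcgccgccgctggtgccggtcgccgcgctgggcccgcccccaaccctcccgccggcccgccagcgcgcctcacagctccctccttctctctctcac

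CACGTG, which reads the same on both strands, was found in 2 of the 9 windows, those of Ipo4, where it starts 14 bases after the start site, and of Ipo7, where it starts 137 bases before it. Of all 32817 promoter windows of this length, 7.15% held it. The letters TTCNNNGAA, which STAT proteins are known to bind and which also read the same on both strands, were found in none of the 9 windows and in 8.29% of all windows. CCAAT, the letters that the factor NF-Y is known to bind, searched on both strands, was found in 6 of the 9, among them Ipo5, Kpnb1 and Kpna2, and in 37.4% of all. These matches describe letters only.

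By position, the members lie on 7 chromosomes of GRCm38, all as protein-coding genes. Ipo4 (55625400 to 55635957, minus strand) and Ipo5 (120911224 to 120947999, plus strand) share chromosome 14. Kpnb1 (97159714 to 97187881) and Kpna2 (106988629 to 106999541) are on the minus strand of chromosome 11, 3.59 Mb and 6.1 Mb from the Stat5a and Stat5b genes, which the mutant mice lack in different combinations. The annotation places 55.32% of the exon bases of Ipo4 in a second gene model on the same strand, Gm49378, and 7.07% of those of Kpnb1 in the antisense model Gm11583. Neither model is a row of the count tables.

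The members differed widely in level. Per kilobase of exon, the median over the 24 CD8+ groups was highest for Kpnb1, the importin beta that carries most classical import, at 57.2 CPM per kb. Xpo1, the main exportin for proteins and ribosomal subunits, followed at 23.9, Ipo5 at 23.3, and Ipo7 was lowest at 8.22 CPM per kb. They also differed in how far their level ranged. Ipo4, which imports histones and ribosomal proteins, ran from a mean of 25.1 CPM in BBA Tnv with IL-15 to 119 CPM in WT Tcm with IL-15, a ratio of 4.74. Ipo5, another carrier of histones and ribosomal proteins, ranged 3.49-fold, Kpna2, an importin alpha, 3.14-fold and Ipo7, which also carries ribosomal proteins, 2.84-fold. The other 6 ranged between 1.42-fold for Ipo9 and 1.98-fold for Kpnb1.

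Central memory cells with IL-15 gave the largest differences between WT and BBA, by the median over the members and by their maximum, whereas over AAB both were larger in Tnv cells with IL-15. In Tcm cells both WT libraries lay above both BBA libraries for all 10 members, which held for 33.3% of the 11545 genes passing the filter over the CD8+ libraries, and 5 of the 10 were called higher in WT: Ipo4, Ipo5, Ipo7, Kpnb1 and Kpna2. Of the 9856 genes tested, 12.3% were called higher in WT than in BBA. Between WT and AAB, both WT libraries again lay above both AAB libraries for all 10, against 28% of genes, but only Ipo4 and Ipo5 were called, against 2.8% of genes called higher. The median log2 fold change of the members was 0.61 over BBA and 0.33 over AAB, whereas the median of all tested genes was 0.00 and 0.01.

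**Figure D1:**
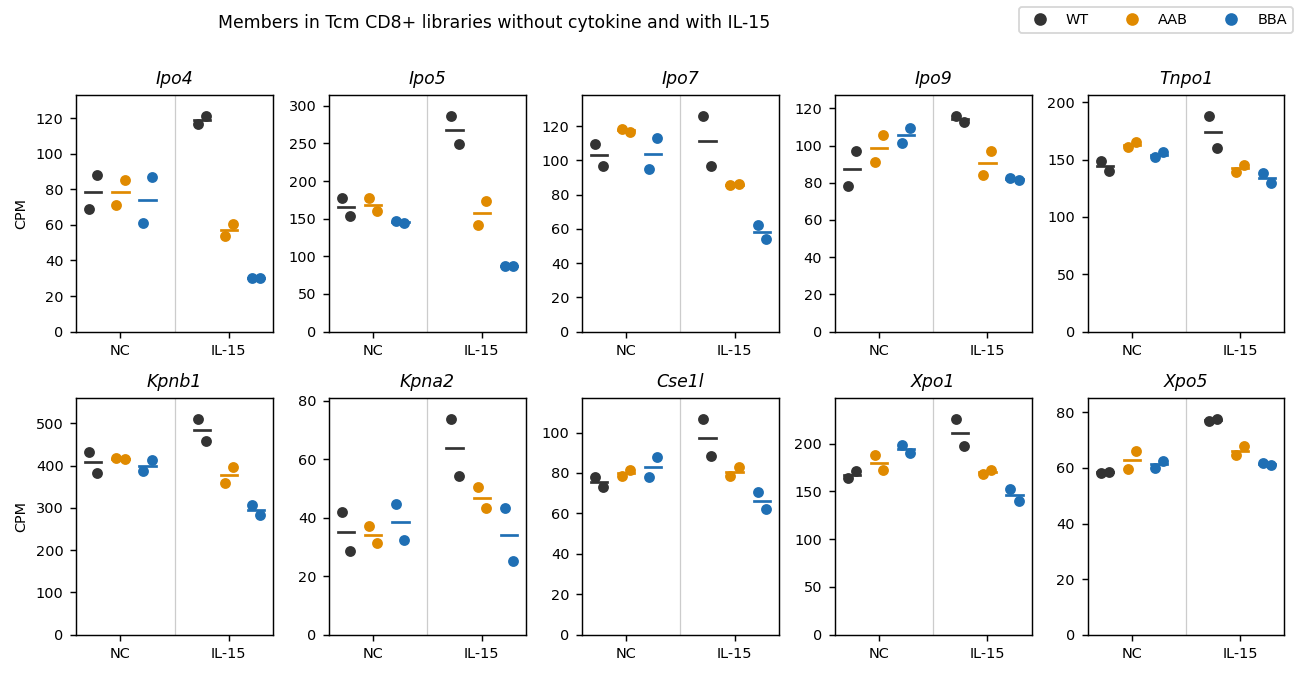
Each panel plots a member's level in CPM (vertical axis from 0) in the 2 Tcm CD8+ libraries of each genotype without cytokine (NC) and with IL-15, with points for libraries and lines for their means. Without cytokine no member is called, whereas with IL-15 the WT points lie above the BBA points in every panel, furthest for Ipo4 and Ipo5.

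Ipo4 was at 117 and 121 CPM in WT, 53.9 and 60.4 CPM in AAB, and 30 and 30.4 CPM in BBA. The 3 genotypes did not overlap, and the BBA mean was 25.4% and the AAB mean 48.1% of the WT mean. WT over BBA the log2 fold change was 1.95 ± 0.09 (SE, adjusted p = 9.44e-05), at percentile 99.2 of all tested genes. WT over AAB it was 1.04 ± 0.09 (SE, adjusted p = 0.00388).

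Ipo5 followed the same order, at 286 and 249 CPM in WT, 142 and 174 CPM in AAB and 87.7 and 86.5 CPM in BBA. The log2 fold change was 1.59 ± 0.13 (SE) over BBA (adjusted p = 0.000279) and 0.75 ± 0.12 (SE) over AAB (adjusted p = 0.0177). The call over AAB was lost without WT replicate 1 or without AAB replicate 1. AAB was also set against BBA, and in this condition 3.12% of genes were called higher in AAB than in BBA. Ipo4 (0.91 ± 0.09, SE, adjusted p = 0.00517) and Ipo5 (0.85 ± 0.12, SE, adjusted p = 0.0143) were the 2 members called, both higher in AAB. In other conditions the AAB over BBA value of Ipo4 was 0.80 in Tcm with IL-7 (adjusted p = 0.624), 0.61 in Tnv with IL-7 (adjusted p = 0.299), 0.54 in Tem with IL-15 (adjusted p = 0.406) and 0.56 in CD4+ cells with IL-7 (adjusted p = 0.0395, under the fold limit). In Tnv with IL-15 the Ipo4 value was only 0.23, the highest of the members there, and no member was called. Without cytokine no member was called AAB over BBA in any cell type.

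Ipo7 stood at 126 and 96.7 CPM in WT, 85.7 and 86.1 CPM in AAB and 62 and 54.4 CPM in BBA. It was 0.91 ± 0.14 (SE) higher in WT than in BBA on the log2 scale (adjusted p = 0.00288). Ipo9, which carries core histones and actin, was at 116 and 113 CPM in WT and 82.4 and 81.2 CPM in BBA, and its difference of 0.45 ± 0.09 (SE, adjusted p = 0.0092) was below the 1.5-fold limit. Tnpo1, which imports RNA-binding proteins such as hnRNPs, showed the second smallest difference, with 188 and 160 CPM in WT against 138 and 130 CPM in BBA (0.35 ± 0.10, SE, adjusted p = 0.0321).

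The classical pair, Kpnb1 and its adaptor Kpna2, was called together. Kpnb1 was at 509 and 459 CPM in WT and 307 and 283 CPM in BBA, a log2 fold change of 0.69 ± 0.10 (SE, adjusted p = 0.00241). Kpna2 was more scattered, at 73.5 and 54.4 CPM in WT, 50.5 and 43.3 CPM in AAB and 43.2 and 25.1 CPM in BBA. Its log2 fold change of 0.89 ± 0.26 (SE, adjusted p = 0.0308) dropped to 0.51 without BBA replicate 2 and to 0.64 without WT replicate 1, and the call was lost both times. In the same libraries a list of 10 mitosis genes summed to 140 to 154 CPM in WT and 95.4 to 137 CPM in BBA. Of the 6 mitosis genes tested, 2 were called, both higher in BBA, beside 11.1% of all genes called in that direction. Their part in the Kpna2 difference was not tested.

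The export receptors stayed under the fold limit, as did the importins Ipo9 and Tnpo1. Cse1l, which returns importin alpha to the cytoplasm, was at 106 and 88.3 CPM in WT against 70.5 and 62.1 CPM in BBA (0.53 ± 0.12, SE, adjusted p = 0.0124). Xpo1 was at 225 and 197 CPM against 152 and 140 CPM (0.50 ± 0.10, SE, adjusted p = 0.00757). Xpo5, which exports microRNA precursors, was at 76.9 and 77.4 CPM against 61.7 and 61.2 CPM, the smallest difference among the members at 0.30 ± 0.08 (SE, adjusted p = 0.0234).

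How far these values reach depends on the scaling. With TMM factors from all genes, no filter applied, the median log2 fold change of the same 9856 genes moved from 0.00 to 0.24 WT over BBA, and with filterByExpr to 0.21, and 9 and 8 members were then called. The share of all genes called under these settings is not given here, so these counts have none to be read against. The export receptors Xpo1 and Cse1l were among those gained in both. The share of counts on genes below the filter was 0.787% to 0.913% in the BBA libraries of this condition and 0.26% to 0.334% in the WT libraries. The summed level of 5 B cell genes (none of them at 0) also moved, from 92.5 to 173 CPM in WT and from 193 to 405 CPM in BBA. Myeloid genes summed to 10.5 to 15.5 CPM in WT and 27.2 to 48.8 CPM in BBA. The part of these in the member differences was not tested. All 10 members were higher in WT than in BBA under each of the 4 settings of filter and normalization.

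Without cytokine, Tcm cells showed no such order, and most members were somewhat lower in WT, none of them called. Over BBA, 2 of the 10 members had a positive log2 fold change (median -0.12), and over AAB 1 (median -0.12). Ipo4 was at 68.8 and 87.9 CPM in WT, 71.3 and 85.3 CPM in AAB and 60.9 and 86.8 CPM in BBA, and the ranges overlapped. Ipo5 was at 178 and 154 CPM in WT against 147 and 144 CPM in BBA, a small gap that was not called. To test whether the BBA difference itself differed between IL-15 and NC, both conditions were fitted together over 12 libraries. IL-15 and culture cannot be told apart in this test. The WT over BBA difference was larger with IL-15 for 7 members called, against 4.79% of the 10469 genes called in that direction: Ipo4 (by 1.87 ± 0.25 on the log2 scale, SE, adjusted p = 0.00294), Ipo5 (1.42 ± 0.17, SE, adjusted p = 0.00213), Ipo7, Ipo9, Kpnb1, Xpo1 and Cse1l, the last 5 by 0.67 to 0.93. The other 3 were Kpna2 (1.03 ± 0.40, SE, adjusted p = 0.151), Tnpo1 (0.46) and Xpo5 (0.38). Without cytokine the BBA means of Ipo9, Xpo1 and Cse1l were 121%, 116% and 110% of the WT means, which is part of their values here. The count was 2 when BBA replicate 2 or WT replicate 1 of the IL-15 libraries was left out, Ipo4 and Ipo5 in both cases. With the replicate number as a block it was 8, with Kpna2 added (1.04 ± 0.17, SE, adjusted p = 0.00225).

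**Figure D2:**
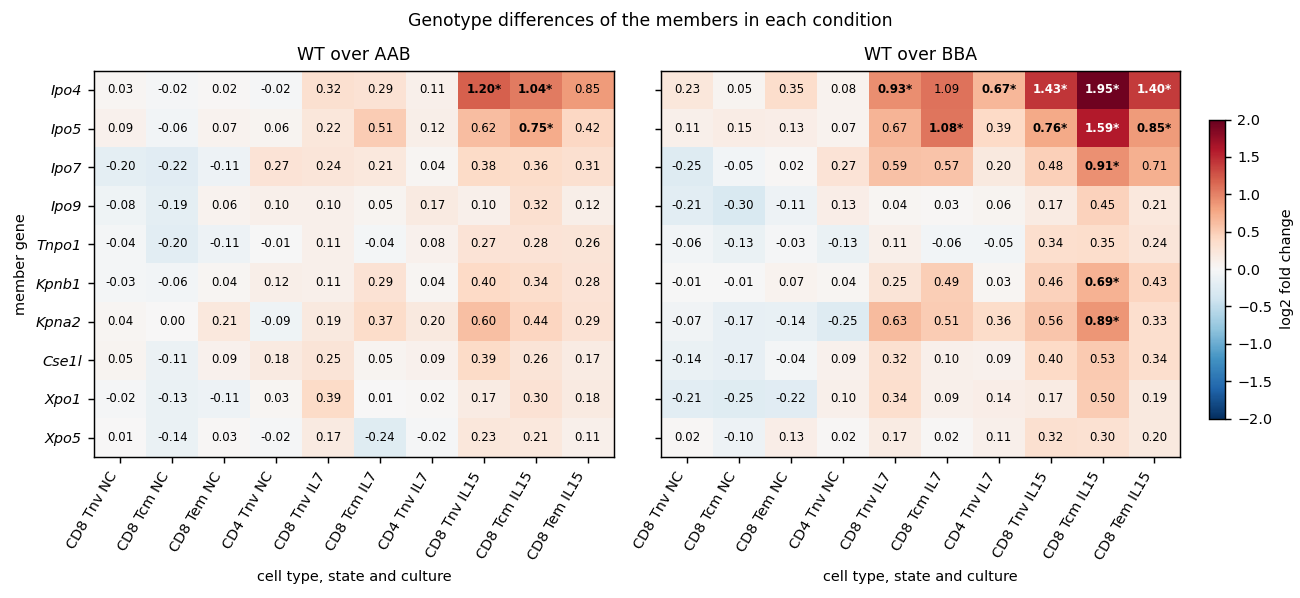
Log2 fold changes of the 10 members (rows) in 10 conditions (columns), WT over AAB on the left and WT over BBA on the right, with colour from -2 to 2 and an asterisk for values called changed. The NC columns hold no call, all calls in the cytokine columns are positive, and the highest value is 1.95 for Ipo4 over BBA in Tcm with IL-15.

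In naive CD8+ cells with IL-15, Ipo4 and Ipo5 were again the members called over BBA. Ipo4 was at 71.1 and 67.4 CPM in WT, 27 and 33.1 CPM in AAB and 23.3 and 26.9 CPM in BBA, so that both mutants lay well below WT and close to each other. The log2 fold change was 1.43 ± 0.16 (SE) over BBA (adjusted p = 0.00397) and 1.2 ± 0.15 (SE) over AAB (adjusted p = 0.0289). Ipo5 was at 143 and 124 CPM in WT, 83.7 and 89.9 CPM in AAB and 81.2 and 72.9 CPM in BBA, and was called over BBA (0.76 ± 0.13, SE, adjusted p = 0.0136) but not over AAB (0.62 ± 0.13, SE, adjusted p = 0.0796). In all, 2 members were called over BBA against 2.53% of genes, and 1 over AAB against 0.389%.

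For 9 of the 10 members both WT libraries lay above both BBA libraries, as did 24.5% of all genes, and the same number lay above both AAB libraries, as did 21% of genes. Without WT replicate 2, the library with high Cd4, Ipo4 was 1.48 higher over BBA and 1.23 over AAB and Ipo5 0.87 over BBA, and all 3 calls were kept. Ipo4 over AAB was not called without either AAB library, and Ipo5 over BBA was not without WT replicate 1. The BBA difference was larger with IL-15 than without cytokine for Ipo4 only among the members called (by 1.18 ± 0.19, SE, adjusted p = 0.0135), against 0.828% of genes. That call was lost without either WT NC library, and the value was 1.21 (adjusted p = 0.0257 in edgeR) without the IL-15 library with high Cd4.

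Other measures moved with genotype in Tnv cells with IL-15. Myeloid genes summed to 6.69 to 14.9 CPM in WT and 37.4 to 95.1 CPM in BBA, and genes below the filter held 0.295% to 0.427% of counts in WT and 0.921% to 1.65% in BBA. Of 7 mitosis genes tested, 4 were called, all higher in BBA, beside 7.07% of all genes called in that direction. Their part in the member differences was not tested. With no filter the median log2 fold change of all genes WT over BBA moved from 0.01 to 0.32 and 8 members were called, and with filterByExpr to 0.22 and 6. The share of all genes called under these settings is not given here either.

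In effector memory cells with IL-15, Ipo4 was at 72.8 and 63.6 CPM in WT, 34.9 and 38.5 CPM in AAB and 23.7 and 26.9 CPM in BBA. Again the genotypes did not overlap. All 10 members were higher in both WT libraries than in both BBA libraries, against 27.4% of genes, and than in both AAB libraries, against 19.7%. Ipo4 (1.40 ± 0.13, SE, adjusted p = 0.0179) and Ipo5 (0.85 ± 0.11, SE, adjusted p = 0.0374) were called over BBA, where 1.22% of genes were called higher, but neither was when any 1 of the 6 libraries was left out or with filterByExpr. With the replicate number as a block Ipo7 was called too (0.71 ± 0.11, SE, adjusted p = 0.00313).

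Over AAB no member was called in Tem cells with IL-15 by edgeR without a replicate block, with 0.0199% of genes called in either direction. At an unadjusted p under 0.05 there were 3, beside 742 of all 10034 genes, and DESeq2 called 1 member. Ipo4 had a log2 fold change of 0.85 ± 0.12 (SE, adjusted p = 0.23), and with the replicate number as a block 0.86 ± 0.13 (SE, adjusted p = 0.0192), which made it the only member called there.

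With IL-7 in Tnv cells, Ipo4 was at 98.9 and 94.8 CPM in WT, 85.6 and 69.8 CPM in AAB and 55.1 and 48 CPM in BBA, all from male libraries. It was called over BBA (0.93 ± 0.15, SE, adjusted p = 0.0322), where 1.54% of genes were called higher, and the call was lost when any 1 of the 4 WT and BBA libraries was left out. With the replicate number as a block, Ipo5 (0.68 ± 0.11, SE, adjusted p = 0.0165) and Ipo7 (0.59 ± 0.11, SE, adjusted p = 0.0282) were called as well. B cell genes summed to 8.92 to 15.6 CPM in WT and 30.8 to 51.4 CPM in BBA, myeloid genes to 1.87 to 4.6 CPM and 5.84 to 10.4 CPM, and mitosis genes to 29.4 to 33.5 CPM and 42.9 to 43 CPM, and their part in these differences was not tested.

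In Tcm cells with IL-7, Ipo5 was at 233 and 212 CPM in WT, 156 and 144 CPM in AAB and 107 and 94.2 CPM in BBA, without overlap. It was 1.08 ± 0.14 higher over BBA (SE, adjusted p = 0.0232), the 1 member called against 1.42% of genes, and was not called without either BBA library. Ipo4 was at 76.5 and 96 CPM in WT and 47 and 30.3 CPM in BBA (1.09 ± 0.24, SE, adjusted p = 0.0584). In the male libraries alone, 2 WT against 1 BBA, the log2 fold change was 1.52 for Ipo4 and 1.25 for Ipo5, with adjusted p of 0.141 and 0.252. Other measures separated WT from BBA here too. B cell genes summed to 18.8 to 42.9 CPM in WT and 150 to 258 CPM in BBA, and the mitosis list to 205 to 289 CPM and 104 to 162 CPM. Genes below the filter held 0.24% to 0.31% of counts in WT and 0.682% to 0.824% in BBA. The part of these in the member differences was not tested. Over AAB with IL-7 no member was called in Tnv cells (0.256% of genes called) or Tcm cells (0.0589%) by edgeR or by DESeq2. An unadjusted p under 0.05 was found for 1 and 2 members, beside 976 of 10157 and 1155 of 10185 genes.

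**Figure D3:**
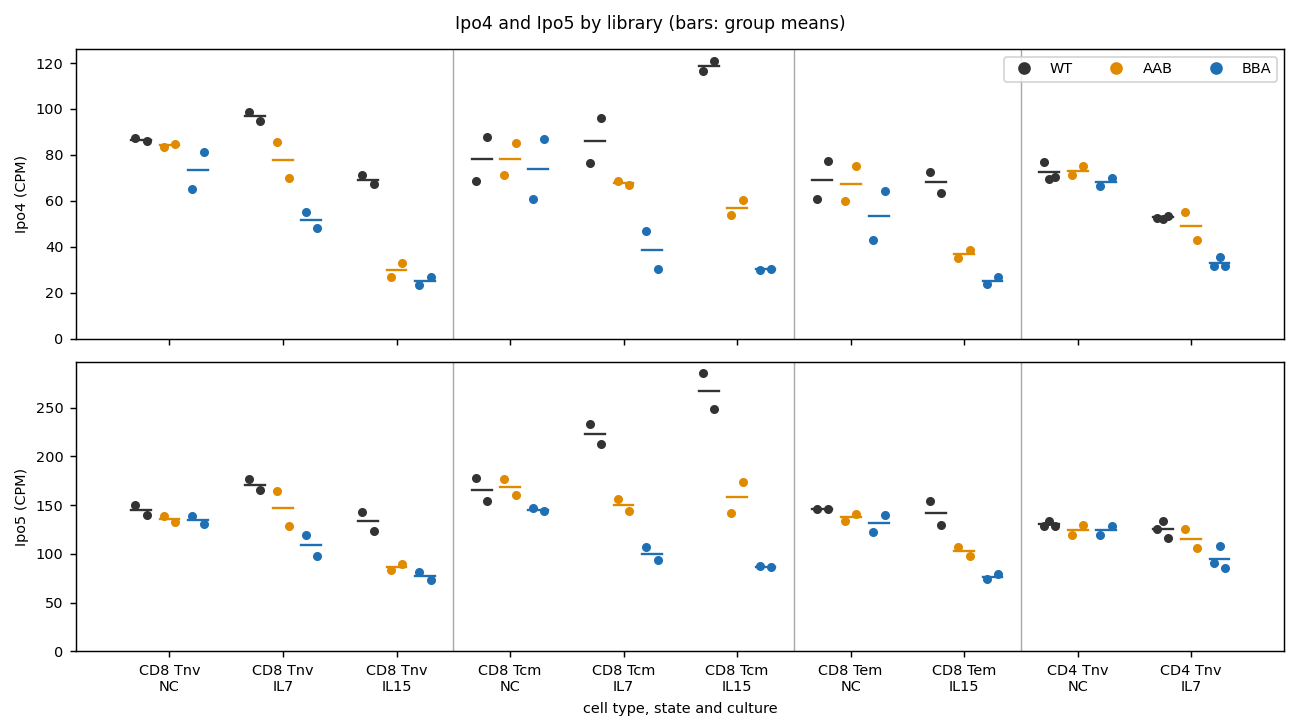
Levels of Ipo4 (top) and Ipo5 (bottom) in CPM in every CD8+ and CD4+ library with a group, by cell type, state and culture on the horizontal axis, with points for libraries and bars for group means. Ipo4 falls to 30 CPM and below in BBA Tnv, Tcm and Tem libraries with IL-15, apart from a Tcm library at 30.4 CPM, and its WT libraries reach 117 and 121 CPM in Tcm with IL-15.

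Over all CD8+ groups the order of Ipo4 means began with BBA Tnv with IL-15 (25.1 ± 2.59 CPM, SD, n = 2), BBA Tem with IL-15 (25.3 ± 2.24), AAB Tnv with IL-15 (30.1 ± 4.34) and BBA Tcm with IL-15 (30.2 ± 0.286). The libraries of the 2 BBA groups named first overlapped, as did those of the AAB Tnv and BBA Tcm groups. It ended with WT Tnv without cytokine (86.7 ± 1.03 CPM), WT Tnv with IL-7 (96.9 ± 2.86) and WT Tcm with IL-15 (119 ± 3.19), whose libraries did not overlap with each other. The Ipo5 order began with BBA Tem with IL-15 (76.6 ± 3.99 CPM) and BBA Tnv with IL-15 (77 ± 5.86), within their spread, and ended with WT Tcm with IL-7 (223 ± 14.8 CPM) and WT Tcm with IL-15 (267 ± 26.3), also without overlap.

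Naive CD4+ cells with IL-7 repeated the Ipo4 result at a smaller size. Ipo4 was at 52.8, 52.2 and 53.5 CPM in WT, 55 and 43.1 CPM in AAB, and 31.8, 35.7 and 31.8 CPM in BBA. WT and BBA did not overlap, and the log2 fold change was 0.67 ± 0.10 (SE, adjusted p = 0.00359), the 1 member called against 2.62% of genes, and the call was kept when any 1 of the 8 libraries was left out. B cell genes summed to 6.08 to 9.84 CPM in WT and 12.8 to 55.7 CPM in BBA, and their part was not tested. Ipo5 (0.39 ± 0.10, SE, adjusted p = 0.0424) and Kpna2 (0.36 ± 0.08, SE, adjusted p = 0.0187) passed on p but not on fold. Over AAB none was called by edgeR or by DESeq2, with 0.637% of genes called. An unadjusted p under 0.05 was found for 1 member, beside 1072 of all 9412 genes.

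Without cytokine, no member was called by edgeR or by DESeq2 in any cell type. In Tnv CD8+ cells 0.164% of genes were called over AAB and 2.75% over BBA, in Tcm cells 0.039% and 0.283%, in Tem cells 0.0198% and 0.208%, and in CD4+ cells 0.355% and 1.13%. Members with an unadjusted p under 0.05 numbered 1 over AAB and 3 over BBA in Tnv CD8+ cells and 0 in the other 6 comparisons. Of all 9750 genes tested in Tnv CD8+ cells, 765 over AAB and 2211 over BBA were under that p. The member counts there are near the share over all genes. In the other 6 comparisons 394 to 1083 genes were under it. WT over BBA, 3 of the 10 members had a positive log2 fold change in Tnv CD8+ cells, 2 in Tcm, 5 in Tem and 8 in CD4+ cells. The values ran from -0.25 to 0.23 in Tnv CD8+ cells and from -0.22 to 0.35 in Tem cells. Ipo4 was the highest in both (0.23 ± 0.11 and 0.35 ± 0.23, SE).

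In each comparison of cytokine with NC in WT cells, Kpna2 had the highest log2 fold change of the members. In Tnv CD8+ cells Kpna2 was at 25.1 and 22.9 CPM without cytokine, 55.9 and 65.1 CPM with IL-7 and 42.3 and 42.1 CPM with IL-15, with no overlap. The log2 fold change was 1.32 ± 0.11 (SE) with IL-7 (adjusted p = 0.000524) and 0.84 ± 0.11 (SE) with IL-15 (adjusted p = 0.00784). It was the 1 member called in each, against 9.87% of genes called higher with IL-7 and 3.37% with IL-15. The IL-7 count is near the share over all genes. The IL-15 call was lost without either NC library and was 0.83 without the IL-15 library with high Cd4. The IL-7 libraries were male and the NC libraries female, so that sex and IL-7 cannot be told apart there. B cell genes summed to 54.4 to 134 CPM in these NC libraries and 8.92 to 15.6 CPM with IL-7, and their part was not tested.

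In CD4+ Tnv cells, where all libraries were male, Kpna2 rose from 27.6, 26.1 and 23.6 CPM to 45.2, 43.3 and 45.3 CPM with IL-7. That is 0.80 ± 0.09 on the log2 scale (SE, adjusted p = 0.00027), and the call was kept when any 1 of the 6 libraries was left out. It was the 1 member called higher, a count near the share over all genes (9.32%). Ipo4 was at 76.9, 69.7 and 70.5 CPM without cytokine and 52.8, 52.2 and 53.5 CPM with IL-7, a log2 fold change of -0.45 ± 0.07 (SE, adjusted p = 0.00191) that missed the fold limit. In Tnv CD8+ cells with IL-15, Ipo4 was likewise at -0.30 ± 0.07 (SE, adjusted p = 0.0502), and at -0.28 without the library with high Cd4. In Tnv CD8+ cells Cse1l (0.53), Ipo7 (0.50), Xpo1 (0.41), Tnpo1 (0.40) and Xpo5 (0.35) had positive values with IL-7 at an adjusted p of 0.00487 to 0.0243, under the fold limit.

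**Figure D4:**
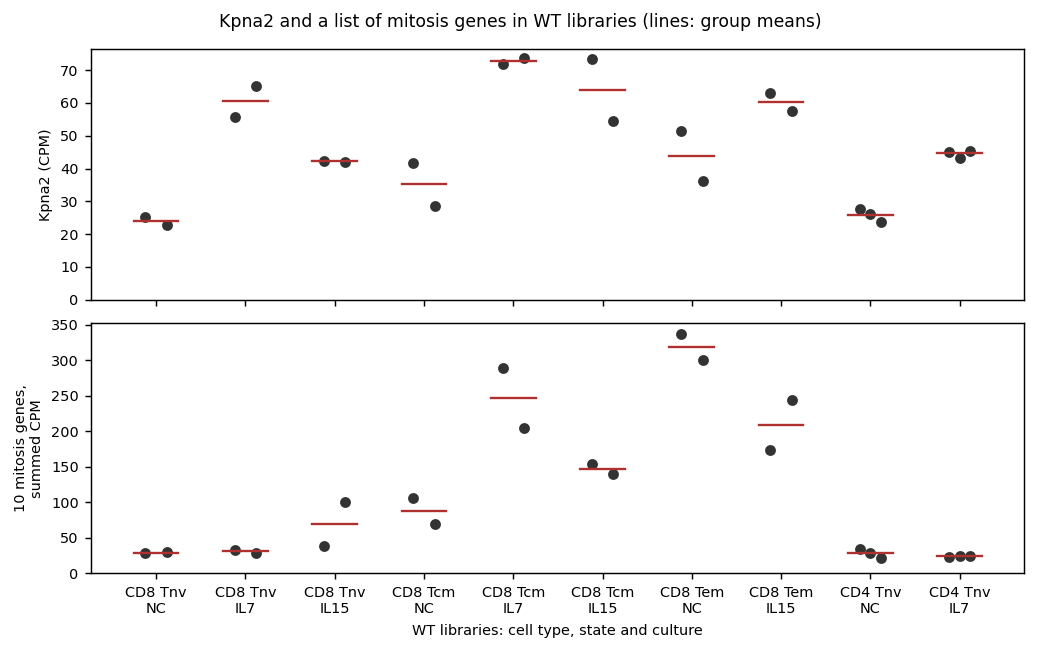
Kpna2 (top) and the summed level of 10 mitosis genes (bottom) in CPM in the WT libraries by cell type, state and culture, with points for libraries and lines for group means. Kpna2 is higher with IL-7 in CD8+ and CD4+ Tnv cells. The mitosis sum lies between 22 and 35 CPM in those Tnv groups.

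Kpna2 is known as a gene of dividing cells, and the mitosis list gives a measure of that. In Tnv CD8+ cells its sum was 28.2 and 29.7 CPM without cytokine and 33.5 and 29.4 CPM with IL-7, and 38.5 and 101 CPM with IL-15, the last in the library with high Cd4. In CD4+ cells it was 22.2 to 34.6 CPM without cytokine and 23 to 25.3 CPM with IL-7. No mitosis gene was called higher in either IL-7 comparison, of 4 tested in CD8+ and 3 in CD4+ cells. The rest of the list was below the filter there, and the part of cell division in the Kpna2 values was not tested.

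In WT Tcm cells Kpna2 was at 41.8 and 28.7 CPM without cytokine, 71.9 and 73.8 CPM with IL-7 and 73.5 and 54.4 CPM with IL-15, again with no overlap between NC and either cytokine. Its log2 fold changes were 1.03 ± 0.23 (SE, adjusted p = 0.137) and 0.87 ± 0.22 (SE, adjusted p = 0.236). Here the mitosis sum was higher with cytokine as well, at 68.9 to 107 CPM without cytokine, 205 to 289 CPM with IL-7 (median log2 fold change 1.48 over 10 genes, 1 called higher, beside 0.195% of all genes) and 140 to 154 CPM with IL-15. Myeloid genes summed to 48.9 to 58.8 CPM without cytokine and 214 to 370 CPM with IL-7, and the IL-7 libraries were male and the NC libraries female. The part of these in the Kpna2 values was not tested. With IL-15 edgeR called 0% of the 10768 genes, of which 1311, 5 members among them, had an unadjusted p under 0.05, and DESeq2 called 337 genes, Kpna2 and Ipo5 among them. With IL-7 0.381% of genes and no member were called by edgeR, 1264 genes, 2 members among them, had an unadjusted p under 0.05, and DESeq2 called Kpna2. In Tcm cells Ipo4 was at 117 and 121 CPM with IL-15 against 68.8 and 87.9 CPM without (0.60 ± 0.20, SE, adjusted p = 0.317), and all 10 members had a positive log2 fold change, with a median of 0.38.

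In Tem cells with IL-15 no member was called by edgeR or DESeq2, with 1 at an unadjusted p under 0.05, Kpna2 (0.48 ± 0.17, SE, adjusted p = 0.233), and 1.53% of genes called. Of all 9665 genes, 1805 were under that unadjusted p. Cell state alone moved the members little. Tcm against Tnv without cytokine, 2.78% of genes were called and no member by either tool, and Tem against Tcm 1.95% and none, with no member at an unadjusted p under 0.05. Of all 10013 genes, 1428 and 1344 were under that unadjusted p. The largest values were those of Kpna2, 0.52 ± 0.22 (SE) and 0.36 ± 0.22 (SE).

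Active STAT5A in the retrovirus libraries left the members without a call. Stat5a was at 60 and 61 CPM in the libraries labelled S5a and 8.45 and 3.22 CPM in those labelled Ctl. Stat5b was at 148 and 132 CPM against 62.1 and 73.7 CPM. Ipo4 was at 15.7 and 20.7 CPM in S5a and 20.3 and 25.9 CPM in Ctl, and the groups overlapped. In each group the Y-linked genes marked the library named first as male and the other as female. Within each sex Ipo4 was lower in S5a, and no fit took account of sex there. Log2 fold changes ran from -0.35 for Ipo4 to 0.18 for Kpna2, while 6.63% of genes were called in either direction. No member was called by edgeR or DESeq2, or had an unadjusted p under 0.05, a level that 2132 of all 10419 genes reached. Since these libraries held NK cell markers and almost no CD8 or CD3 mRNA, their levels are not set beside those of the CD8+ libraries.

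Over the 24 CD8+ group means of log2 CPM the members were not all alike. Ipo4, Ipo5, Ipo7 and Kpnb1 were most like each other, with Pearson's r of 0.94 between Ipo4 and Kpnb1 and 0.93 between Ipo5 and Kpnb1. Cse1l and Tnpo1 were a pair at 0.92, Xpo1 and Xpo5 were most like Cse1l (0.86 and 0.81), and Ipo9 was most like Xpo1 (0.83). Kpna2 was the least like member for 8 of the other 9, with its highest r, 0.53, to Xpo5. These are descriptions over group means that share libraries and scaling. Outside the members, the genes most like their mean profile among 8766 genes with at least 10 CPM on average were Abce1 (0.97), a ribosome recycling factor, Syncrip (0.97), an RNA-binding protein, Nop56 (0.97), a core protein of box C/D snoRNPs, Psme3 (0.97), a proteasome activator, and Heatr1 (0.96), a ribosome biogenesis factor. The median gene had r of 0.13. Myc, which encodes a transcription factor that drives growth genes, had r of 0.90, at rank 124 of the 8766 genes. It was at 384 and 441 CPM in WT Tcm with IL-15, 141 and 171 CPM in AAB and 69.7 and 86.4 CPM in BBA. A part of Myc in the member differences was not tested.

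Other parts of the transport machinery were taken from lists of named genes, chosen with earlier results of these data known. Their calls beside the share of all genes are therefore descriptions only. Of 16 further karyopherins, 14 were tested in Tcm with IL-15, and 3 were called over BBA, all higher in WT: Xpot, the tRNA exportin (0.77 ± 0.08, SE, adjusted p = 0.000845), and the importin alphas Kpna1 (0.61) and Kpna3 (0.59). Their median was 0.21. The share of all genes called higher there was 12.3%. In the same comparison 5 of 9 tested genes of the Ran cycle and RNA export were called, all higher in WT, with a median of 0.62. Ranbp1 (1.67 ± 0.13, SE, adjusted p = 0.000307), a cofactor of Ran-GTP hydrolysis, Rcc1 (1.41), the exchange factor that loads Ran with GTP, and Ran itself (1.41 ± 0.10, SE, adjusted p = 0.000191) were the furthest.

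Of 30 nucleoporins, the proteins of the pore, 9 were called over BBA in Tcm with IL-15, beside 12.3% of all genes. All were higher in WT, and the median of the list was 0.36. Nup43 (1.34 ± 0.28, SE), Nup205 (1.29 ± 0.11, SE) and Ndc1 (0.93 ± 0.21, SE), which anchors the pore in the membrane, were the furthest. Over AAB the calls were 0, 3 and 1 in these 3 lists, beside 2.8% of all genes, and the Ran list had 2 calls over BBA in Tcm with IL-7, beside 1.42%, all higher in WT.

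**Figure D5:**
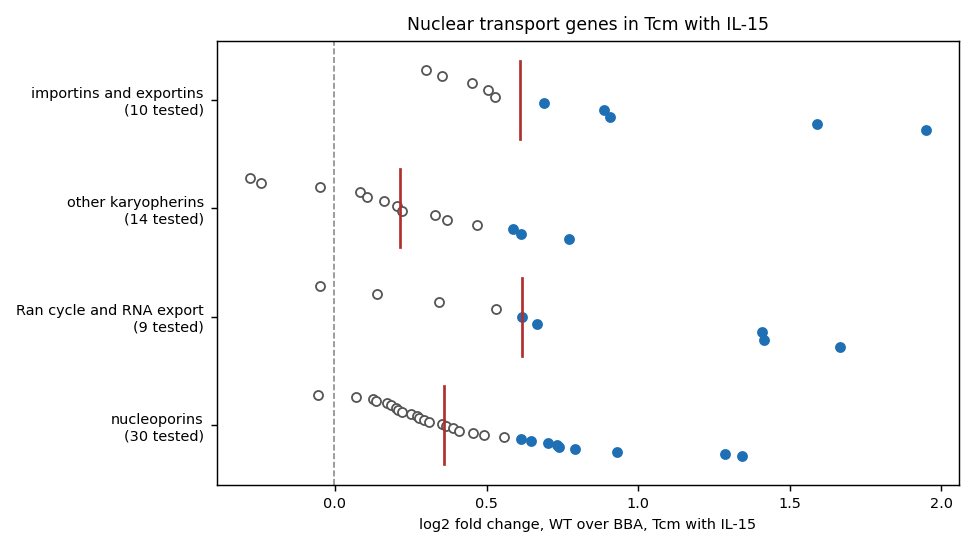
Log2 fold changes WT over BBA in Tcm with IL-15 (horizontal axis) for the 10 members and for 3 lists of transport genes, with 1 point a gene, filled where called, red lines for list medians and a dashed line for the median of all tested genes. The medians are 0.61 for the members, 0.21 for the other karyopherins, 0.62 for the Ran list and 0.36 for the nucleoporins, against 0.00 for all genes.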

How the data were processed

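Per the paper's methods, the authors sequenced single-end 50 bp reads, aligned them with TopHat2 and counted reads per gene symbol with HTSeq, and the deposited values are raw counts. The build is mm9 in the submitters' processing notes and mm10 in the methods. The annotation and strand setting are not given in the sources used here, so reads of overlapping and antisense genes cannot be told apart. The retrovirus table also held 5 summary rows, 67% to 68.4% of each column, which stayed out of all steps.

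Of 69 libraries, 67 were mapped to groups, and 2 whose title and treatment label differ were left out of tests. The members and gene lists were chosen with earlier results of these data known. Each condition was fitted by itself over its 3 genotypes with edgeR 4.0.16 (R 4.3.3, TMM, glmQLFit and glmQLFTest, Benjamini-Hochberg over all genes tested), after a Jaccard filter on low counts like that of the study. WT cytokine responses, cell states and the difference between differences were fitted likewise. Alternatives were DESeq2 1.42.0, its size factors in edgeR, filterByExpr, no filter (at least 1 count), all libraries of a lineage together, each library left out, a replicate block, and, chosen after seeing the data, male libraries only.

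The genes named are the 10 members, up to 3 per list (the called genes with the largest fold), the 5 most like the members' profile, and Stat5a, Stat5b and Myc. Same-numbered libraries deviated together (r over 0.1 for every pair) in all 3 NC conditions of CD8+ cells, Tnv with IL-7, Tcm and Tem with IL-15, CD4+ NC, the Tcm difference between differences and the cell states, and there the numbers were read as pairing. In Tcm with IL-7 (-0.06 to 0.14), Tnv with IL-15 (-0.01 to 0.33) and CD4+ with IL-7 (0.09 to 0.44) they were not, nor in the Tnv difference between differences or the WT responses of Tnv, Tcm and CD4+ cells. The main fits held no replicate block, so where the numbers pair the libraries their SE and p-values leave the pairing out. Calls that a block added there are given in the Results. All 38 replicate pairs differed by more than sampling noise (chi-square over its degrees of freedom, 5.75 to 101). The tests were tested on simulated counts. Positions are of GRCm38 and gene names are those of the tables. Stat5a and Stat5b share much sequence, so their counts are uncertain to that extent.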

Additional observations from a re-analysis of the deposited data

Results flagged for a closer look

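For 8 member results the WT over BBA difference with IL-15 differed from that without cytokine, by the test of that difference in edgeR over 12 libraries. IL-15 and culture cannot be told apart in that test. In Tcm cells the difference was larger with IL-15 by 1.87 on the log2 scale for Ipo4, 1.42 for Ipo5, 0.93 for Ipo7, 0.73 for Ipo9, 0.67 for Kpnb1, 0.73 for Xpo1 and 0.67 for Cse1l. In Tnv cells it was larger by 1.18 for Ipo4. Of all genes, 4.79% were called in that direction in Tcm cells and 0.828% in Tnv cells. With 1 of the 12 libraries left out in turn, Ipo4 and Ipo5 kept their Tcm calls in all 12 fits. Xpo1 kept its call in 10, Ipo7 and Kpnb1 in 9, Cse1l in 4 and Ipo9 in 3. The Tnv call of Ipo4 was lost without either WT NC library. No group had 4 or more libraries, so none could be searched for outliers.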

How the results depend on the processing

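The 32 counts of members called and the 320 member values behind them were recomputed under each alternative. Shares of all genes called belong to the main fits, and the counts under alternatives are given without one. Of 3980 alternative values, 3836 stayed on their side of the threshold, 59 lost a call and 85 gained 1, and no called value changed sign. With no filter the counts of members called were 4 for WT over BBA in Tnv with IL-7, 2 over AAB and 8 over BBA in Tnv with IL-15, 4 over BBA in Tcm with IL-7, 9 over BBA and 4 for AAB over BBA in Tcm with IL-15, 1 and 1 for IL-7 and IL-15 against NC in WT Tcm, and 4 in Tnv for the difference between differences. With filterByExpr they were 6 over BBA in Tnv with IL-15, 2 over BBA in Tcm with IL-7, 8 over BBA in Tcm with IL-15, 0 over BBA in Tem with IL-15 and 3 in Tnv for the difference between differences. With DESeq2 they were 4, 2, 2 and 1 over BBA in Tnv with IL-7, over AAB in Tnv with IL-15, over BBA in Tcm with IL-7 and over AAB in Tem with IL-15, 1 and 2 for IL-7 and IL-15 in WT Tcm, and 3 in Tnv for the difference between differences, and DESeq2 size factors gave 2 there. With all libraries of a lineage they were 2 over BBA in Tnv with IL-7, 2 over AAB in Tnv with IL-15, 3 over BBA in Tcm with IL-7, and 1 and 2 for IL-7 and IL-15 in WT Tcm. Smaller changes were 3 over BBA in Tem with IL-15 with DESeq2 and with all libraries, 3 for AAB over BBA in Tcm with IL-15 with filterByExpr, and, for the Tcm difference between differences, 8 with filterByExpr, 9 with no filter and 8 with all libraries.

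With a replicate block the counts were 3 over BBA in Tnv with IL-7, 1 over AAB in Tem with IL-15 and 8 for the Tcm difference between differences, where the numbers pair the libraries, and 2 over AAB in Tnv with IL-15 and 3 in the Tnv difference between differences, where they share only a number. Over BBA in Tem with IL-15 the block gave 3. Beyond these the block changed no count. The 2 retrovirus groups were not paired because 1 library carries no number. Each held 1 male and 1 female library, and a block for sex was not fitted.

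Leaving out 1 library gave counts of 0 to 4 over BBA in Tnv with IL-7, 0 to 1 over AAB and 1 to 2 over BBA in Tnv with IL-15, 0 to 3 over BBA in Tcm with IL-7, 1 to 2 over AAB and 4 to 7 over BBA and 1 to 2 for AAB over BBA in Tcm with IL-15, 0 to 0 over BBA in Tem with IL-15, 0 to 1 for IL-15 in WT Tnv and for each cytokine in WT Tcm, and 0 to 2 in Tnv and 2 to 7 in Tcm for the difference between differences. Leaving 1 library in a group assumes that it varies like the others. Male libraries only gave 0 over BBA in Tcm with IL-7. Depth gave at least 167 counts a member in every library.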

Other observations

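The 2 CD4+ Tnv libraries whose title reads NC but whose treatment label gives IL-7 belong to no group, and each is reported by its own value. In the AAB library Ipo4 was at 69.7 CPM, Ipo5 at 113 CPM and Kpna2 at 22 CPM. In the BBA library Ipo4 was at 70.9 CPM, Ipo5 at 119 CPM and Kpna2 at 27.2 CPM. In the labelled WT libraries Kpna2 stood at 23.6 to 27.6 CPM without cytokine and at 43.3 to 45.3 CPM with IL-7.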
